A study of Mus musculus with 12 samples.

Results

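The genes described here were 33 genes of cholesterol and fatty acid synthesis, in mouse fibroblast-like synoviocytes grown in culture, the fibroblasts that line joints and make their lubricating matrix. They were named by symbol from the pathways, with earlier results of these data known. Shares of members set beside shares of all genes therefore describe this list and do not test it. All 33 were found among the 36875 symbols of the count table, and all 33 were among the 15050 genes that passed the filter on low counts. They comprised 6 genes of the mevalonate pathway, 11 of sterol synthesis, 6 that control the sterol regulatory element-binding proteins (SREBPs) or move sterols, and 10 of fatty acid synthesis.

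Poly(A) RNA was sequenced in 3 groups of 4 libraries. The resolution group, also named DOX OFF, came from mice that for 3 weeks drank 5% sucrose water with 1 mg/ml doxycycline, after which the drug was stopped. The inflammation group, also named DOX ON, came from mice on the same 3-week course without a stop. The homeostasis group, also named WT, came from mice that drank 5% sucrose water for 3 weeks. The extraction protocol of every sample names mice with arthritis induced by TNF. Not given in the sources used here are how TNF was induced (any transgene and its promoter), the genotype of the WT mice, the strain, age and sex, the time from withdrawal to harvest and the culture passage. Separate animals or cultures behind the 4 libraries of a group are not stated either, so each p-value measures the spread between libraries, and that spread may be technical.

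Cells build cholesterol from acetyl-CoA. The mevalonate pathway makes isoprenoid units, squalene is assembled from them, and a chain of sterol enzymes turns squalene into cholesterol. Fatty acid synthesis starts from the same acetyl-CoA. The transcription factors SREBP1 and SREBP2 drive both routes. When membrane sterol is low, the escort protein SCAP carries them to the Golgi for cleavage, and INSIG proteins hold SCAP back when sterol is plentiful. Fibroblasts use the products for membranes and for the isoprenoid anchors of small GTPases, and they also take up cholesterol from serum lipoproteins.

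Library totals lay between 18120756 and 34971549 counts, and levels are given as CPM, counts scaled to a common library size, with factors from the trimmed mean of M-values. The summed level of 12 fibroblast markers was 7644 to 13495 CPM in resolution, 18510 to 22184 in inflammation and 23920 to 25468 in homeostasis, and the collagen genes Col1a1, Col1a2 and Col3a1 made up most of it. The markers did not move as one: 2 were higher and 4 lower in resolution than in inflammation, 2 higher and 8 lower in resolution than in homeostasis, and 2 higher and 5 lower in inflammation than in homeostasis. The proteoglycan gene Dcn averaged 897 ± 144 CPM in resolution, 972 ± 132 in inflammation and 161 ± 66.1 in homeostasis, and Pdpn, a marker of synovial lining fibroblasts, passed in no comparison at 745 ± 35.5, 728 ± 99.6 and 716 ± 117 CPM in the same order. Prg4, of the same list, averaged 983 ± 398, 829 ± 89.6 and 3212 ± 1216 CPM in that order. It was lower than homeostasis in resolution (-1.71 ± 0.27, adjusted p = 3.43e-05) and in inflammation (-1.95 ± 0.27, adjusted p = 1.89e-05). Thy1 was lower than homeostasis in both as well (-1.39 ± 0.15 and -2.03 ± 0.16). The sum of 15 macrophage markers was 64.4 to 73.4 CPM in resolution, 667 to 738 in inflammation and 121 to 160 in homeostasis. The sum of 15 proliferation genes was 383 to 440 CPM in resolution, 669 to 743 in inflammation and 1868 to 1997 in homeostasis. Ddx3y, a gene of the Y chromosome, had 0 counts in resolution, 3 counts in all in inflammation and 22.2 to 26.2 CPM in homeostasis, so each comparison against homeostasis also set libraries nearly without Y-linked RNA against libraries with it, and the 2 differences cannot be told apart. Tnf was 0.136 to 0.467 CPM in resolution, 0.573 to 1.76 in inflammation and 1.78 to 6.39 in homeostasis. These are bulk samples, in which fewer cells of a type and less RNA per cell cannot be told apart. Resolution library 2 was the highest or lowest of its group in 28 of the 33 genes, or 84.8%, against 69.9% of all genes tested. Inflammation library 4 was so in 27 genes, or 81.8%, against 66.2%.

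Against homeostasis, inflammation had higher RNA of 10 of the 33 genes, mainly enzymes of mevalonate and sterol synthesis, and lower RNA of none. Resolution had lower RNA of 12 of the 33 than inflammation and higher RNA of none. With the replicate number as a block, 7 of the 33 were lower in that comparison, where 949 of all 15050 genes were lower and 949 higher. With the block fitted to those 2 groups alone, 18 were lower and 1 higher. That fit also called more of all genes, 2224 lower and 2585 higher of 14739. Against homeostasis, resolution was split, with 8 genes higher and 14 lower. In inflammation against homeostasis the median log2 fold change of the 33 genes was 0.19, against -0.01 over all genes tested, and 30.3% of the members passed an adjusted p of 0.05 against 37.2% of all genes (19% higher and 18.3% lower). In resolution against inflammation the median was -0.31, against 0.02 over all genes, 36.4% of the members passed against 16.2% of all genes (8.52% higher and 7.63% lower), and 27 of the 33 estimates lay below 0. In resolution against homeostasis the median was -0.22, against -0.01, and 66.7% passed against 53.3% of all genes (27.5% higher and 25.8% lower). The edgeR count of 0 lower genes in inflammation against homeostasis was 2 at an unadjusted p under 0.05 and 0 in DESeq2. The count of 0 higher genes in resolution against inflammation was 1 at an unadjusted p under 0.05 and 0 in DESeq2. Counting genes whose libraries did not overlap between 2 groups, 0 members lay higher and 14 lower in resolution than in inflammation (8.96% and 9.9% of all genes, 18.9% in all), 6 higher and 11 lower in resolution than in homeostasis (21.9% and 21.6%, 43.5% in all), and 9 higher and 1 lower in inflammation than in homeostasis (18.1% and 17.3%, 35.4% in all). The 3 comparisons share libraries pairwise, so their counts are not separate pieces of evidence.

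**Figure D1:**
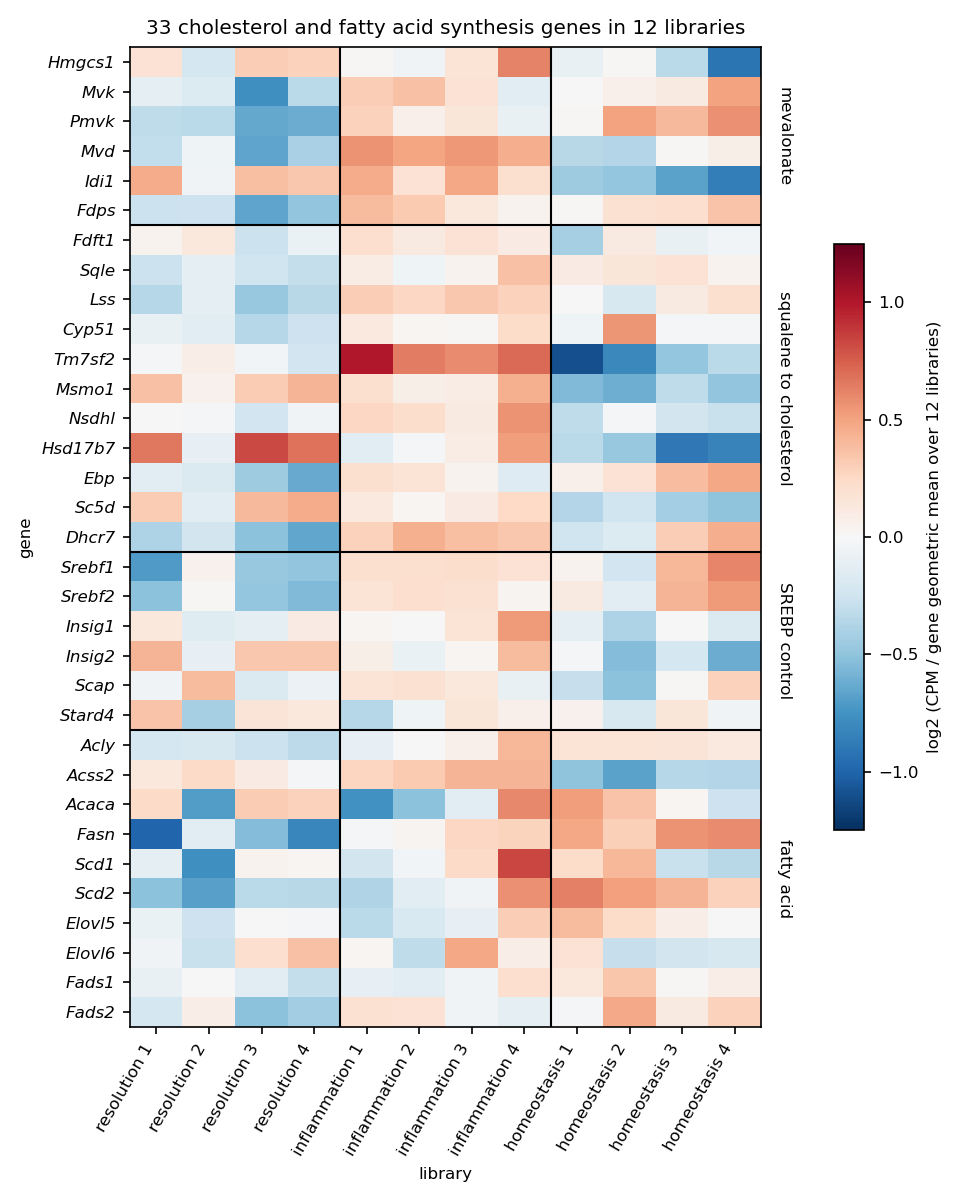
Level of each of the 33 genes in each of the 12 libraries as a difference in log2 CPM from the gene's mean over the libraries, with the groups ordered resolution, inflammation and homeostasis and the genes ordered by role. Hmgcs1, Idi1, Msmo1, Hsd17b7, Sc5d and Acss2 are low in most homeostasis libraries, and Pmvk, Fdps, Fasn and Scd2 are low in resolution.

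The calls fell into a few patterns. Higher than homeostasis in both doxycycline groups were 8 genes, or 24.2%, against 15.8% of all genes tested: Hmgcs1, Idi1, Tm7sf2, Msmo1, Hsd17b7, Sc5d, Insig2 and Acss2. Lower in resolution than in both other groups were 10 genes, or 30.3%, against 5.67% of all genes: Mvk, Pmvk, Fdps, Sqle, Lss, Dhcr7, Srebf1, Srebf2, Fasn and Scd2. Mvd and Tm7sf2 were higher in inflammation than in both other groups, which was 6.06% of the members against 2.08% of all genes. No comparison passed for 9 genes, or 27.3%, against 40.2% of all genes: Fdft1, Insig1, Scap, Stard4, Acaca, Scd1, Elovl5, Elovl6 and Fads1. None was lower than homeostasis in both doxycycline groups, against 15.2% of all genes, and none was higher in resolution than in both other groups, against 7.15%.

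**Figure D2:**
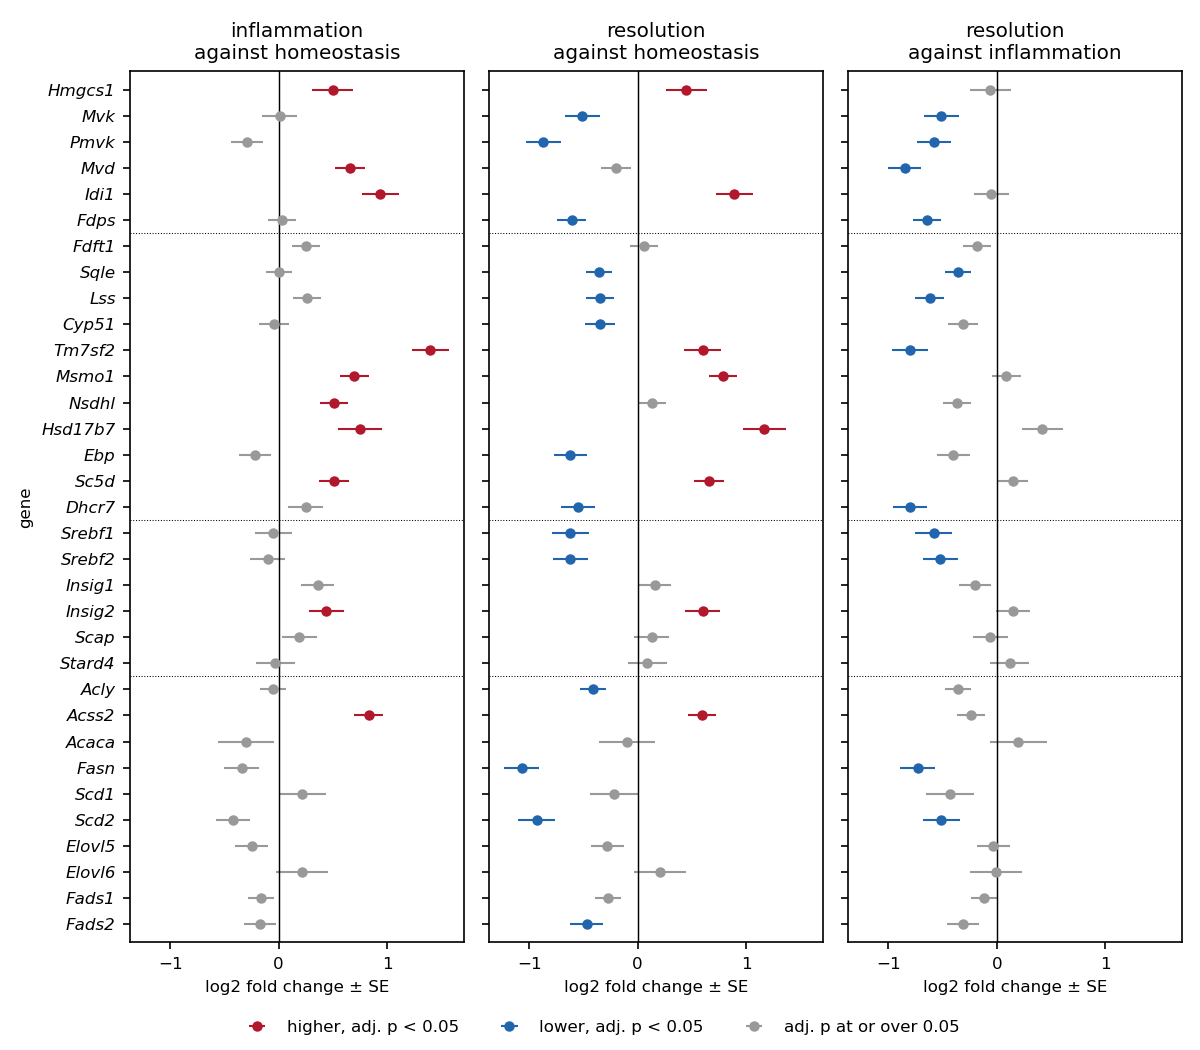
Log2 fold change of each of the 33 genes with its standard error (bars), in 1 panel per comparison; red and blue points passed an adjusted p of 0.05 in edgeR as higher and lower, and grey points did not pass. Estimates run from -0.85 to 0.42 in resolution against inflammation, from -1.07 to 1.17 in resolution against homeostasis and from -0.42 to 1.40 in inflammation against homeostasis.

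Upstream sequence was compared because several of these genes moved together. RefSeq windows on GRCm38.p6 were matched for 26 of the 33 genes; those with no matched window were Fdps, Fdft1, Sqle, Stard4, Scd1, Scd2 and Fads1. Over the 250 bases before any listed start, on both strands, the nuclear factor Y box CCAAT was present in 21 of the 26 genes, or 80.8%, against 40.1% of 10789 tested genes with a window. The Sp1 box GGGCGG was present in 21, or 80.8%, against 61.8%. The E-box CACGTG was present in 6, or 23.1%, against 9.66%, and the short sterol regulatory element core TCACNCC in 4, or 15.4%, against 16.8%. The longer element TCACNCCAC, which holds TCACNCC within it, was found in Hmgcs1 alone, 3.85% against 1.27%. The other element form searched, CACCCCAC, was found in Hmgcs1 alone as well, 3.85% against 3.49%. In the Hmgcs1 window printed below it overlaps with the match of the longer element, so the matches there are not separate sites. CCAAT stood in 5 of 5 mevalonate genes with a window, 9 of 9 sterol genes, 4 of 5 SREBP control genes and 3 of 7 fatty acid genes. It stood in all 8 genes higher than homeostasis in both doxycycline groups and in all 7 genes with a window that were lower in resolution than in both others. It also stood in 2 of the 5 genes with a window that passed in no comparison. Cyp51, Ebp, Acly and Fads2 were called lower in resolution than in homeostasis alone. Of these, Cyp51 and Ebp had CCAAT, and Acly and Fads2 had windows without it. Because CCAAT also differed by role, role and pattern cannot be told apart here, and a link between CCAAT and the calls was not tested. The 150 bases directly before a RefSeq start are printed for 7 genes with exon-free windows that cover the 3 patterns. Hmgcs1, Sc5d and Insig2 stand for the genes higher in both doxycycline groups, Mvk, Pmvk and Fasn for the genes lower in resolution, and Mvd for those higher in inflammation. Each printed window holds CCAAT, so the printed set does not show how common the box is. Exon-free windows without CCAAT were left out, namely those of Acly and Acaca and some of those of Scap and Srebf1. Pmvk and Insig2 have further listed starts, whose windows overlapped with exons and are not printed. The TCACNCC matches of Insig2 lie before those other starts. The printed bases read 5′ to 3′ on the gene's strand. Capitals mark the box CCAAT or, on the other strand, ATTGG and also the cores TCACNCC and CACGTG. In Fasn one match on each strand overlaps the other.
Hmgcs1, chr13:119690201-119690350, plus strand: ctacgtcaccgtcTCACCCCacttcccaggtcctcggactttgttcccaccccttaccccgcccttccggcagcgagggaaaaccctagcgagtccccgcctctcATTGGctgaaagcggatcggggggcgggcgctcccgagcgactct
Mvk, chr5:114444119-114444268, plus strand: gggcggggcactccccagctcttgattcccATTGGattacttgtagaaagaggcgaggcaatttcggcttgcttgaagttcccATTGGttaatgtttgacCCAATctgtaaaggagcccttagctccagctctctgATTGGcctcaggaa
Pmvk, chr3:89454391-89454540, plus strand: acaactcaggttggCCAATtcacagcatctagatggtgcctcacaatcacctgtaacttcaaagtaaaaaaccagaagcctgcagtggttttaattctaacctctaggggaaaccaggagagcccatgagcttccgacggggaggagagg
Mvd, chr8:122443423-122443572, minus strand: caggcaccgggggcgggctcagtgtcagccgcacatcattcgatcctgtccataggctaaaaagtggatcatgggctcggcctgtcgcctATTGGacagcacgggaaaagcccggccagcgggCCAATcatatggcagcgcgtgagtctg
Sc5d, chr9:42264301-42264450, minus strand: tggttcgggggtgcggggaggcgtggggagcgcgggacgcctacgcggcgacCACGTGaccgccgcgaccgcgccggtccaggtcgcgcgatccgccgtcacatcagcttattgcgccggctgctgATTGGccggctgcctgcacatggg
Insig2, chr1:121332590-121332739, minus strand: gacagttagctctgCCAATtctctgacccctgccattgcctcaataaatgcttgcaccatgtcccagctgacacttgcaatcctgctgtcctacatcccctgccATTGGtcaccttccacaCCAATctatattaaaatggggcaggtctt
Fasn, chr11:120824548-120824697, minus strand: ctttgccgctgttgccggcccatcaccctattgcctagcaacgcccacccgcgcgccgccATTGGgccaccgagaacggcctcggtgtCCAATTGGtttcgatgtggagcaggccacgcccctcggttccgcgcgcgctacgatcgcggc
Mvk had 4 CCAAT boxes in this window, with the nearest 14 bases before the start. Mvd had 2, at 60 and 27 bases. Hmgcs1 held 1 CCAAT at 45 bases and TCACNCC at 137 bases, and Sc5d held CCAAT at 24 bases and CACGTG at 98 bases. These matches describe letters, and binding was not measured.

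In the mevalonate pathway, 3 of 6 genes were higher and 0 lower in inflammation than in homeostasis, and 4 of 6 were lower and 0 higher in resolution than in inflammation. In resolution against homeostasis 2 were higher and 3 lower. Their summed level was 268 to 305 CPM in resolution, 378 to 394 in inflammation and 299 to 327 in homeostasis, so the inflammation libraries lay above all others.

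Mvd, mevalonate diphosphate decarboxylase (8:122433601-122443422, minus strand; gene coordinates are those of GENCODE vM21 on GRCm38, and all 33 genes are annotated there as protein-coding), stood at 49.1, 58.2, 38.5 and 45.7 CPM in resolution libraries 1 to 4, at 89.6, 85.5, 88 and 82.8 CPM in inflammation and at 47.5, 47.1, 61.2 and 63.8 CPM in homeostasis. The 4 inflammation libraries lay above the other 8, and the other 2 groups overlapped. The log2 fold change was 0.66 ± 0.14 (SE) in inflammation against homeostasis (adjusted p = 0.00144) and -0.85 ± 0.15 in resolution against inflammation (adjusted p = 0.000413). In resolution against homeostasis it was -0.20 ± 0.14 (adjusted p = 0.263).

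Fdps, farnesyl diphosphate synthase (3:89093588-89101959, minus strand), stood at 61, 61.4, 46.6 and 52.1 CPM in resolution, at 96.9, 92.1, 80.4 and 76 CPM in inflammation and at 74.3, 84.1, 85.2 and 94.1 CPM in homeostasis. Each resolution library lay below the 8 others, and inflammation and homeostasis overlapped. The log2 fold change of resolution was -0.64 ± 0.13 against inflammation (adjusted p = 0.00266) and -0.61 ± 0.13 against homeostasis (adjusted p = 0.000781). Pmvk, phosphomevalonate kinase (3:89454541-89469013, plus strand), was likewise lowest in resolution, with 13.8 to 17.2 CPM in resolution, 20.1 to 26.3 in inflammation and 21.7 to 32 in homeostasis. Its log2 fold change in resolution was -0.58 ± 0.16 against inflammation (adjusted p = 0.0159) and -0.87 ± 0.16 against homeostasis (adjusted p = 0.000117). With offsets for the GC content and length of transcripts, an alternative added after seeing the data and described with base composition, the first was -0.32 (adjusted p = 0.0798, and 0.119 with the replicate block as well). Mvk, mevalonate kinase, averaged 42 ± 8.03 CPM in resolution, 60 ± 9.02 in inflammation and 59.8 ± 9.89 in homeostasis (SD, n = 4 each). It was lower in resolution than in inflammation (-0.51 ± 0.16, adjusted p = 0.0375, and 0.058 with the replicate block), where the libraries overlapped, and than in homeostasis (-0.51 ± 0.16, adjusted p = 0.0132), where they did not. Neither call was made with GC and length offsets (-0.26, adjusted p = 0.145, against inflammation, and -0.21, adjusted p = 0.141, against homeostasis).

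Idi1, the isomerase that interconverts the isoprenoid building blocks (13:8885501-8892451, plus strand), was in contrast higher in both doxycycline groups. It stood at 11.7, 8.27, 11 and 10.7 CPM in resolution, at 11.7, 9.62, 11.9 and 9.77 CPM in inflammation and at 6.24, 6.09, 5.36 and 4.67 CPM in homeostasis. All 8 doxycycline libraries lay above the 4 homeostasis libraries. The log2 fold change against homeostasis was 0.89 ± 0.17 in resolution (adjusted p = 0.0002) and 0.94 ± 0.17 in inflammation (adjusted p = 0.000237). The value in resolution was 0.27 with GC and length offsets and no longer passed (adjusted p = 0.0871), and that in inflammation was 0.55 (adjusted p = 0.00212). Hmgcs1, the cytosolic synthase that makes HMG-CoA, averaged 115 ± 18.3 CPM in resolution, 119 ± 26.4 in inflammation and 84.2 ± 21.7 in homeostasis. Its libraries overlapped in both comparisons with homeostasis, where it barely passed (0.45 ± 0.19 for resolution, adjusted p = 0.0497, and 0.50 ± 0.19 for inflammation, adjusted p = 0.0398). Neither call was made with GC and length offsets (-0.08, adjusted p = 0.687, in resolution and 0.22, adjusted p = 0.249, in inflammation) or against homeostasis libraries 1 and 2 alone (0.18, adjusted p = 0.435, and 0.26, adjusted p = 0.296). The 2 calls were lost without any one of 8 libraries (adjusted p 0.0555 to 0.168; resolution 1, 3 and 4, inflammation 1 to 3, homeostasis 3 and 4) and without any one of 4 libraries (0.0676 to 0.158; inflammation 3 and 4, homeostasis 3 and 4). In resolution against inflammation, the call of Mvk was lost without any one of resolution 3 and 4 and inflammation 1 to 3 (0.0694 to 0.13), and that of Pmvk without any one of resolution 3 and 4 and inflammation 1 (0.0561 to 0.0583). The call of Mvk in resolution against homeostasis was lost without resolution 3 or homeostasis 4 (0.0563 and 0.0618), and against homeostasis libraries 1 and 2 alone (-0.37, adjusted p = 0.0993).

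Of the 11 sterol genes, 5 were higher and 0 lower in inflammation than in homeostasis, 4 were lower and 0 higher in resolution than in inflammation, and 4 were higher and 5 lower in resolution than in homeostasis. Their summed level was 729 to 793 CPM in resolution, 863 to 987 in inflammation and 707 to 837 in homeostasis.

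Tm7sf2, a sterol reductase that saturates an early intermediate (19:6062821-6068373, minus strand), had the largest rise of the 33 genes in inflammation. It stood at 14.3, 15.3, 14.1 and 12.2 CPM in resolution, at 28.9, 22.5, 21.7 and 23.6 CPM in inflammation and at 6.75, 8.28, 10.3 and 11.4 CPM in homeostasis. No library of one group overlapped with another group, with resolution between the other 2. The log2 fold change was 1.40 ± 0.17 in inflammation against homeostasis (adjusted p = 3.54e-06), 0.60 ± 0.17 in resolution against homeostasis (adjusted p = 0.00589) and -0.80 ± 0.17 in resolution against inflammation (adjusted p = 0.00301). Set against homeostasis libraries 3 and 4 alone, resolution did not pass (0.37, adjusted p = 0.0829). Exons of Tm7sf2 overlap with those of Vps51 on the same strand (mean 32 CPM), so its counts may hold reads of that gene.

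Msmo1, the methylsterol oxidase that starts removal of the methyl groups at carbon 4 (8:64718139-64733792, minus strand), stood at 94.7, 76.3, 91.6 and 99 CPM in resolution, at 84.2, 77.3, 78.5 and 100 CPM in inflammation and at 50.1, 48.3, 58.8 and 52.3 CPM in homeostasis. Every doxycycline library lay above every homeostasis library, and the 2 doxycycline groups overlapped. The fitted log2 fold change against homeostasis was 0.79 ± 0.13 in resolution (adjusted p = 5.34e-05; 0.40 with GC and length offsets, adjusted p = 0.00665) and 0.70 ± 0.13 in inflammation (adjusted p = 0.000353). Hsd17b7, which reduces the 3-keto group left by that demethylation (1:169949535-169969241, minus strand), stood at 50, 29.5, 56.1 and 50.6 CPM in resolution, at 28.8, 31.2, 33.8 and 45.5 CPM in inflammation and at 25.1, 22.7, 17 and 17.7 CPM in homeostasis. Resolution library 2 lay well below the other 3 of its group and still above homeostasis. Its log2 fold change against homeostasis was 1.17 ± 0.20 in resolution (adjusted p = 6.07e-05) and 0.75 ± 0.20 in inflammation (adjusted p = 0.00532). The first was 0.70 with GC and length offsets (adjusted p = 0.000473), and the second was 0.55 against homeostasis libraries 1 and 2 alone (adjusted p = 0.0647). In resolution against inflammation it was 0.42 ± 0.19 (adjusted p = 0.145), 0.58 without resolution library 2 (adjusted p = 0.0174) and 0.39 with the replicate block on those 2 groups alone (adjusted p = 0.0343).

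Sc5d, the desaturase that acts late in the route, averaged 61.6 ± 10.7 CPM in resolution, 55.4 ± 3.65 in inflammation and 38.9 ± 2.9 in homeostasis. It was higher than homeostasis in resolution (0.66 ± 0.14, adjusted p = 0.000545) and in inflammation (0.51 ± 0.14, adjusted p = 0.00725), with no overlap between libraries in either. With GC and length offsets neither call was made, at 0.10 in resolution (adjusted p = 0.402) and 0.19 in inflammation (adjusted p = 0.1), and against homeostasis libraries 1 and 2 alone the value in inflammation was 0.44, at the threshold (adjusted p = 0.05). Nsdhl, the dehydrogenase that works with Msmo1 and Hsd17b7, stood at 56.3 to 66.9 CPM in resolution, 72.3 to 98.4 in inflammation and 53.4 to 65.6 in homeostasis. It was higher in inflammation than in homeostasis (0.51 ± 0.13, adjusted p = 0.00466), and in resolution against inflammation its estimate was -0.37 ± 0.13 (adjusted p = 0.0544) although the libraries did not overlap.

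The enzyme of the last step of one branch to cholesterol, Dhcr7 (7:143823145-143848410, plus strand), stood at 27.5, 30.7, 25.2 and 22.9 CPM in resolution, at 44, 48.8, 46.8 and 45.3 CPM in inflammation and at 30.2, 31.9, 44.4 and 49.1 CPM in homeostasis. Resolution lay below every inflammation library, while homeostasis split, with libraries 1 and 2 near resolution and libraries 3 and 4 near inflammation. In the fit, the log2 fold change of resolution was -0.80 ± 0.16 against inflammation (adjusted p = 0.00188) and -0.55 ± 0.16 against homeostasis (adjusted p = 0.00706). Set against homeostasis libraries 1 and 2 alone, an alternative chosen once the data had been seen, the second was -0.24 (adjusted p = 0.235), and with GC and length offsets it was -0.27 (adjusted p = 0.0848). Lss, which closes squalene epoxide into lanosterol, had 53.2 to 68.6 CPM in resolution, 88.7 to 93.4 in inflammation and 64.3 to 85.2 in homeostasis, and was lower in resolution than in inflammation (-0.62 ± 0.13, adjusted p = 0.00226) and than in homeostasis (-0.35 ± 0.13, adjusted p = 0.0238). The second call of Lss was lost with GC and length offsets (-0.32, adjusted p = 0.106) and against homeostasis libraries 1 and 2 alone (-0.23, adjusted p = 0.211). Sqle, the squalene epoxidase that feeds Lss, had 112 to 127 CPM in resolution, 133 to 178 in inflammation and 142 to 156 in homeostasis, and was lower in resolution than in inflammation (-0.36 ± 0.12, adjusted p = 0.0456, and 0.0904 with the replicate block) and than in homeostasis (-0.36 ± 0.12, adjusted p = 0.0165). Each resolution library of Sqle lay below the other 8.

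Cyp51, the lanosterol demethylase, and Ebp, a sterol isomerase, were lower in resolution than in homeostasis (-0.35 ± 0.14, adjusted p = 0.0429, and -0.62 ± 0.15, adjusted p = 0.00163) and did not pass against inflammation. Against homeostasis libraries 3 and 4 alone the value of Cyp51 was -0.18 (adjusted p = 0.259). Fdft1, squalene synthase, averaged 121 ± 14.4 CPM in resolution, 138 ± 4.71 in inflammation and 116 ± 17 in homeostasis and passed in no comparison, although it was higher than homeostasis in resolution (0.35, adjusted p = 0.00764) and in inflammation (0.41, adjusted p = 0.00315) with GC and length offsets. Exons of Fdft1 overlap with those of Ctsb, a protease gene at a mean of 1155 CPM on the other strand, and whether strand was used in counting is not stated. Against inflammation, the call of Sqle was lost without any one of 8 libraries (adjusted p 0.0521 to 0.124; resolution 1, 3 and 4, inflammation 1 to 4, homeostasis 3). Against homeostasis, calls in resolution were lost for Sqle without resolution 1 or 4 (0.051 and 0.0589), for Lss without any one of resolution 1, 3 and 4 and homeostasis 3 and 4 (0.0605 to 0.0843) and for Cyp51 without any one of resolution 1, 3 and 4, inflammation 1 to 4 and homeostasis 2 (0.0505 to 0.236).

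**Figure D3:**
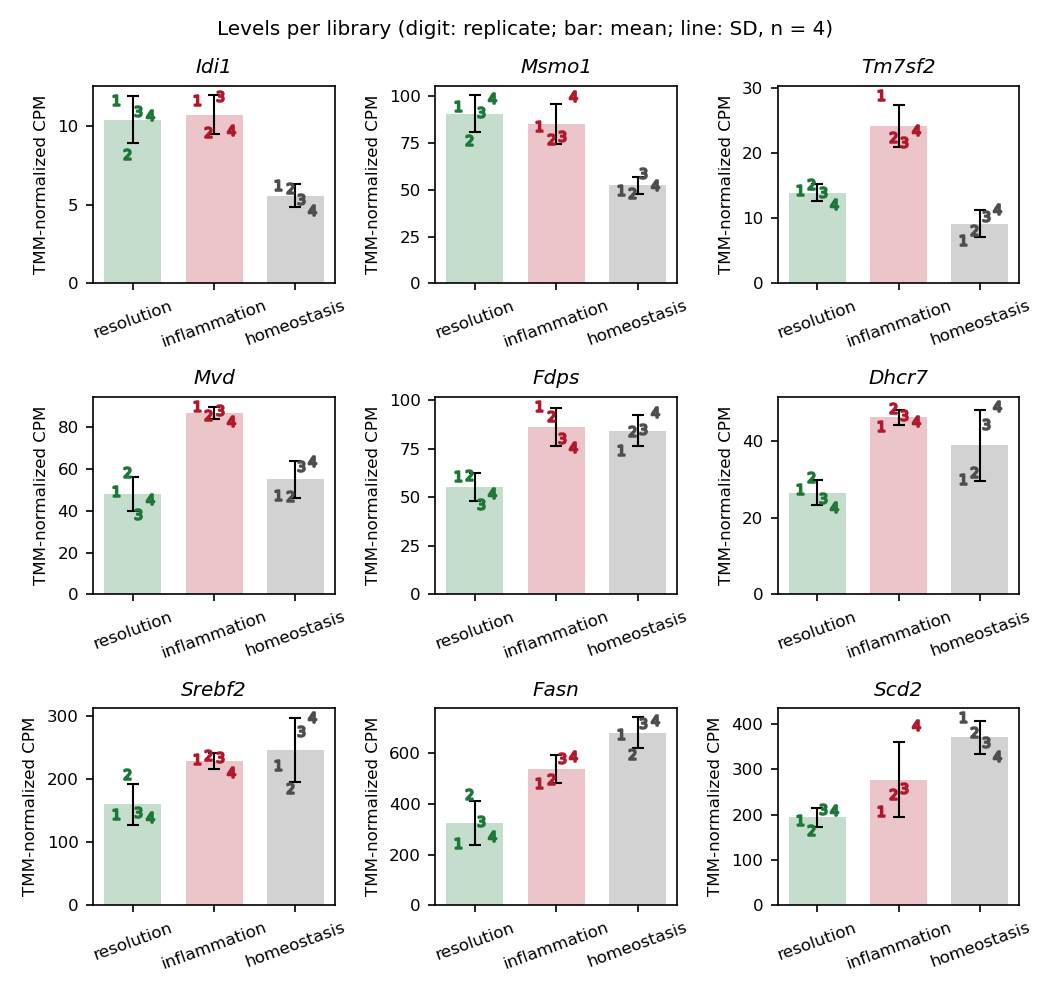
CPM of 9 of the 33 genes in each library, with group means and SD (n = 4), in the order resolution, inflammation and homeostasis; the vertical axes start at 0. Idi1 and Msmo1 are lowest in homeostasis, Tm7sf2 and Mvd are highest in inflammation, and Fdps, Fasn and Scd2 have their lowest means in resolution.

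Among the 6 control genes, the transcription factor genes themselves were lower in resolution and the brake gene Insig2 was higher in both doxycycline groups. In all, 1 of 6 was higher and 0 lower in inflammation than in homeostasis, 1 was higher and 2 lower in resolution than in homeostasis, and 0 were higher and 2 lower in resolution than in inflammation. Srebf2, which encodes SREBP2, the main driver of cholesterol genes (15:82147181-82205379, plus strand), stood at 144, 208, 147 and 140 CPM in resolution, at 232, 237, 235 and 210 CPM in inflammation and at 222, 186, 276 and 297 CPM in homeostasis. Resolution library 2 lay close to inflammation library 4, but the 2 groups did not overlap. The fitted log2 fold change of resolution was -0.52 ± 0.16 against inflammation (adjusted p = 0.0296, and 0.0579 with the replicate block) and -0.62 ± 0.16 against homeostasis (adjusted p = 0.00251). Srebf1, which encodes SREBP1, the main driver of fatty acid genes (11:60199089-60222581, minus strand), stood at 84.1, 142, 98.7 and 97.1 CPM in resolution, at 157, 157, 160 and 155 CPM in inflammation and at 141, 116, 183 and 209 CPM in homeostasis. Library 2 was again the highest of resolution. Its log2 fold change of resolution was -0.58 ± 0.17 against inflammation (adjusted p = 0.0297, and 0.0501 with the replicate block) and -0.62 ± 0.17 against homeostasis (adjusted p = 0.00534). Against inflammation, both calls were lost without any one of resolution 1, 3 and 4 and inflammation 1 to 3 (adjusted p 0.0611 to 0.0922 for Srebf1 and 0.0629 to 0.0936 for Srebf2). Set against homeostasis libraries 1 and 2 alone, the comparison of resolution with homeostasis gave -0.30 for Srebf1 (adjusted p = 0.167) and -0.36 for Srebf2 (adjusted p = 0.0707). With GC and length offsets both genes still passed, at -0.37 for Srebf1 and -0.33 for Srebf2 against inflammation (adjusted p 0.0205 and 0.02, and 0.0296 and 0.0394 with the replicate block as well) and at -0.30 and -0.32 against homeostasis (adjusted p 0.0199 and 0.00702).

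Insig2, which retains SCAP in the endoplasmic reticulum, stood at 60.4, 41.9, 57.1 and 57.1 CPM in resolution, at 47.3, 42.5, 45.9 and 59.3 CPM in inflammation and at 44.3, 31, 38.7 and 29.3 CPM in homeostasis. The groups overlapped in each comparison, and resolution overlapped with homeostasis through its library 2. It was higher than homeostasis in resolution (0.60 ± 0.16, adjusted p = 0.00441) and in inflammation (0.44 ± 0.16, adjusted p = 0.0372). The call in inflammation was lost without any one of inflammation 1, 3 and 4 and homeostasis 2 and 4 (adjusted p 0.054 to 0.117) and against homeostasis libraries 1 and 2 alone (0.38, adjusted p = 0.127). Its relative Insig1, a direct SREBP target in other cells, averaged 31.7 ± 3.25 CPM in resolution, 36.5 ± 6.54 in inflammation and 28.4 ± 3.07 in homeostasis. Insig1 passed in no comparison (0.36 ± 0.15 in inflammation against homeostasis, adjusted p = 0.0606). Scap averaged 194 ± 37, 202 ± 17.7 and 177 ± 43.1 CPM in resolution, inflammation and homeostasis, and the sterol carrier gene Stard4 averaged 10.4 ± 2.2, 9.6 ± 1.41 and 9.8 ± 0.981 CPM in the same order. Neither passed in any comparison. With GC and length offsets Insig1 and Scap were higher in inflammation than in homeostasis (0.44, adjusted p = 0.00923, and 0.30, adjusted p = 0.0231), and in resolution against homeostasis Scap was higher (0.43, adjusted p = 0.00177) and Stard4 lower (-0.38, adjusted p = 0.0354).

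Of the 10 fatty acid genes, 1 was higher and 0 lower in inflammation than in homeostasis, 1 was higher and 4 lower in resolution than in homeostasis, and 0 were higher and 2 lower in resolution than in inflammation. Their summed level was 1380 to 1556 CPM in resolution, 1706 to 2349 in inflammation and 2179 to 2266 in homeostasis. Fasn, the fatty acid synthase itself (11:120805846-120824547, minus strand), stood at 245, 441, 334 and 276 CPM in resolution, at 482, 499, 581 and 589 CPM in inflammation and at 678, 597, 718 and 732 CPM in homeostasis. The 3 groups did not overlap, and resolution library 2 was the highest of its group. In the fit, the log2 fold change of resolution was -1.07 ± 0.16 against homeostasis (adjusted p = 1.35e-05) and -0.73 ± 0.16 against inflammation (adjusted p = 0.00338). In inflammation against homeostasis it was -0.34 ± 0.16 (adjusted p = 0.0931), and -0.34 without resolution library 2 (adjusted p = 0.0344).

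Scd2, a stearoyl-CoA desaturase (19:44293674-44306864, plus strand), stood at 188, 167, 212 and 210 CPM in resolution, at 207, 245, 259 and 397 CPM in inflammation and at 414, 382, 359 and 328 CPM in homeostasis. Inflammation library 4 lay far above the other 3 of its group and inside the homeostasis range. The fitted log2 fold change of resolution was -0.93 ± 0.17 against homeostasis (adjusted p = 0.000106) and -0.51 ± 0.17 against inflammation (adjusted p = 0.0399, and 0.0686 with the replicate block). The second call was lost without any one of resolution 1 to 4 and inflammation 2 to 4 (adjusted p 0.0535 to 0.138, log2 fold change -0.58 to -0.30). In inflammation against homeostasis the estimate was -0.42 ± 0.16 (adjusted p = 0.0517), and the gene passed without any one of resolution 2, inflammation 4 and homeostasis 4 (adjusted p 0.002 to 0.0462, log2 fold change -0.63 to -0.42). Scd1, its neighbour and close relative, averaged 105 ± 24.5 CPM in resolution, 142 ± 48.6 in inflammation and 122 ± 31.6 in homeostasis and passed in no comparison. The similarity of the desaturase genes was not computed, and reads shared among them could not be checked, so both values are uncertain in that respect.

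Acss2, which makes acetyl-CoA from acetate (2:155517948-155585724, plus strand), was the fatty acid gene that rose. It stood at 42.7, 46.2, 41.8 and 38.7 CPM in resolution, at 46.9, 49, 52.3 and 52.4 CPM in inflammation and at 27.5, 24.6, 30.4 and 30.2 CPM in homeostasis. None of the 3 groups overlapped with another. Its log2 fold change against homeostasis was 0.59 ± 0.13 in resolution (adjusted p = 0.000662) and 0.83 ± 0.13 in inflammation (adjusted p = 4.33e-05). Its exons overlap with those of Gss, an abundant gene on the other strand (mean 153 CPM). Lss and Acss2 were the 2 genes of the 33 with fractional counts in the deposited table.

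Acly, ATP citrate lyase, which supplies cytosolic acetyl-CoA from citrate, stood at 389 to 424 CPM in resolution, 455 to 652 in inflammation and 531 to 551 in homeostasis. It was lower in resolution than in homeostasis (-0.41 ± 0.12, adjusted p = 0.00832), and the estimate against inflammation was -0.36 ± 0.12 (adjusted p = 0.0503). Fads2, the delta-6 desaturase, was lower in resolution than in homeostasis with overlapping libraries (-0.47 ± 0.15, adjusted p = 0.0106). With GC and length offsets neither was called in that comparison (-0.14, adjusted p = 0.235, for Acly and -0.17, adjusted p = 0.215, for Fads2). Acaca, acetyl-CoA carboxylase, averaged 29.8 ± 8.43 CPM in resolution, 26 ± 11.4 in inflammation and 31.9 ± 7.51 in homeostasis. Acaca, Scd1, Fads1, Elovl5 and Elovl6 passed in no comparison. Elovl5 was lower than homeostasis in resolution (-0.60, adjusted p = 0.000215) and in inflammation (-0.41, adjusted p = 0.0066) with GC and length offsets. Per kilobase of exon, Acly had the highest level of the 33 genes, at 77.6 ± 2.99 CPM per kilobase in resolution, 99.6 ± 16.5 in inflammation and 103 ± 1.77 in homeostasis. Elovl6 had the lowest, at 0.42 ± 0.0808, 0.425 ± 0.0982 and 0.364 ± 0.0576 CPM per kilobase in the same order. Fasn, at 29.6 ± 7.89, 49.1 ± 5.04 and 62.2 ± 5.55 CPM per kilobase, stood below Fads2, at 52 ± 9.96, 64.3 ± 7.08 and 72.2 ± 10.5, in each group mean, although the ranges of mean ± SD overlapped in homeostasis.

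Genes of the same pathways outside the 33 were counted by list. Of 7 genes of the isoprenoid side branch, 1 was higher and 1 lower in inflammation than in homeostasis, 1 higher and 3 lower in resolution than in homeostasis, and 1 higher and 1 lower in resolution than in inflammation. Ggps1, which makes geranylgeranyl diphosphate from the product of Fdps, averaged 31.9 ± 5.69 CPM in resolution, 22.3 ± 1.64 in inflammation and 13 ± 1.36 in homeostasis. It was higher than homeostasis in resolution (1.29 ± 0.15) and in inflammation (0.78 ± 0.15, adjusted p = 0.000575), and higher in resolution than in inflammation (0.52 ± 0.15, adjusted p = 0.025), whereas Fdps was lower in resolution than in both. With GC and length offsets the 3 values of Ggps1 were 0.57 (adjusted p = 0.000125), 0.33 (adjusted p = 0.0143) and 0.25 (adjusted p = 0.1) in that order. Fntb, a farnesyltransferase subunit, averaged 16.7 ± 2.39 CPM in resolution, 26.3 ± 3.31 in inflammation and 35.9 ± 6.97 in homeostasis and passed as lower in each of the 3 comparisons.

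Of 4 other mevalonate and sterol genes, 0 were higher and 1 lower in inflammation than in homeostasis, 0 higher and 2 lower in resolution than in homeostasis, and 0 higher and 2 lower in resolution than in inflammation. Acat2, which joins acetyl-CoA units before Hmgcs1, averaged 68.7 ± 9.13 CPM in resolution, 94.4 ± 2.93 in inflammation and 80.5 ± 5.75 in homeostasis and was lower in resolution than in inflammation (-0.46 ± 0.12, adjusted p = 0.0158). Of 11 other control genes, 2 were higher and 1 lower in inflammation than in homeostasis, 4 higher and 4 lower in resolution than in homeostasis, and 3 higher and 2 lower in resolution than in inflammation. Mbtps2, the site-2 protease that releases the SREBPs, averaged 16.6 ± 4.25 CPM in resolution, 11.4 ± 1.35 in inflammation and 8.37 ± 0.668 in homeostasis. It was higher in resolution than in inflammation (0.54 ± 0.17, adjusted p = 0.0381) and than in homeostasis (0.99 ± 0.18, adjusted p = 0.000103). Neither call of Mbtps2 was made with GC and length offsets (0.19, adjusted p = 0.394, and 0.17, adjusted p = 0.311).

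Of 19 other fatty acid genes that could be tested, 2 were higher and 6 lower in inflammation than in homeostasis, 3 higher and 9 lower in resolution than in homeostasis, and 0 higher and 1 lower in resolution than in inflammation. Acsl4, which activates long polyunsaturated fatty acids, averaged 203 ± 43.1 CPM in resolution, 156 ± 27.6 in inflammation and 67.6 ± 9.16 in homeostasis, and was higher than homeostasis in resolution (1.59 ± 0.17) and in inflammation (1.20 ± 0.16), with values of 0.82 and 0.72 under GC and length offsets. Fads3, a relative of Fads1 and Fads2, averaged 223 ± 37.4 CPM in resolution, 260 ± 18.9 in inflammation and 419 ± 103 in homeostasis, and was lower than homeostasis in resolution (-0.91 ± 0.16, adjusted p = 0.000116; -0.59 with GC and length offsets) and in inflammation (-0.69 ± 0.16, adjusted p = 0.00256). Of 5 genes of the mTOR and AMPK pathways that act on lipid synthesis, 1 was higher in inflammation than in homeostasis, 4 in resolution than in homeostasis and 1 in resolution than in inflammation, with 0 lower in each. Lpin1, a phosphatidate phosphatase, averaged 64.9 ± 9.17 CPM in resolution, 44.3 ± 17.4 in inflammation and 25 ± 2.86 in homeostasis.

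The base composition of the genes moved with their fold changes. The GC content of the longest annotated transcript had a median of 44.3% in the 8 genes higher than homeostasis in both doxycycline groups and of 54.5% in the 10 genes lower in resolution than in both others, against 49.1% over the 33 genes and 49.7% over 13604 tested genes with an entry. Across the 33 genes, GC content and log2 fold change had a Pearson r of -0.64 in resolution against inflammation, -0.65 in resolution against homeostasis and -0.37 in inflammation against homeostasis. The same r across the 13604 genes was -0.29, -0.33 and -0.19. These points share their libraries, and genes are not independent replicates. With offsets for GC content and length in each library, chosen after seeing the data, the 3 values over the 33 genes were -0.19, -0.23 and -0.12. The offsets were fitted over all genes to subtract trends with GC content and length, so a smaller r follows largely from how they were made. They remove such a trend between groups whatever its source, technical or biological, and the source was not tested. With those offsets 0 members were higher and 13 lower in resolution than in inflammation, 7 higher and 11 lower in resolution than in homeostasis, and 12 higher and 2 lower in inflammation than in homeostasis. Over the 13604 genes the same fit called 1060 higher and 1073 lower (7.79% and 7.89%), 3460 and 3769 (25.4% and 27.7%), and 2637 and 3402 (19.4% and 25%) in that order. Of the member calls made without offsets, 10 of 12, 14 of 22 and 8 of 10 were also made with them in the same direction. Lost were Mvk and Pmvk in resolution against inflammation, Hmgcs1, Mvk, Idi1, Lss, Sc5d, Dhcr7, Acly and Fads2 in resolution against homeostasis, and Hmgcs1 and Sc5d in inflammation against homeostasis. So of the 8 genes called higher than homeostasis in both doxycycline groups, Hmgcs1 and Sc5d passed in neither with offsets and Idi1 passed in inflammation alone. Gained in resolution against inflammation were Cyp51 (-0.43, adjusted p = 0.0218), Nsdhl (-0.49, adjusted p = 0.00504) and Scd1 (-0.52, adjusted p = 0.0435), all lower. In inflammation against homeostasis Pmvk became lower (-0.36, adjusted p = 0.0201) and Dhcr7 higher (0.41, adjusted p = 0.0135).

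**Figure D4:**
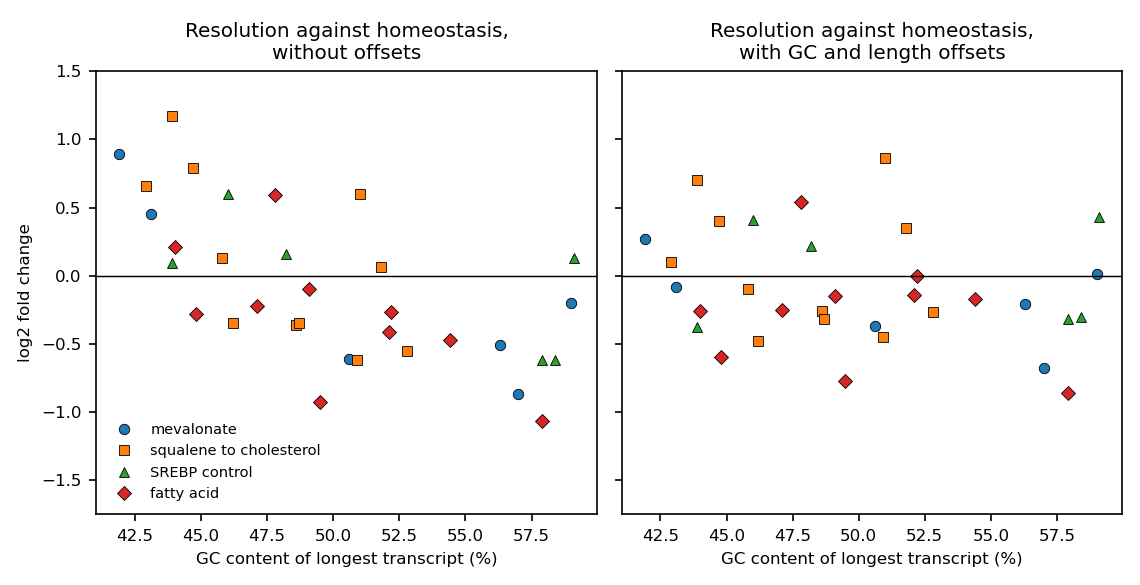
GC content of the longest transcript (percent) against log2 fold change in resolution against homeostasis for the 33 genes, without offsets (left) and with GC and length offsets (right), coloured by role. Without offsets the estimates decline with GC content (Pearson r of -0.65), and with offsets the r is -0.23. The offsets subtract trends with GC content by construction.

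Markers of other cells moved with the groups as well. Of 14 macrophage markers tested, 14 were higher in inflammation than in homeostasis, 9 were lower in resolution than in homeostasis and 13 were lower in resolution than in inflammation. Macrophage RNA was highest in inflammation, where Mvd, Tm7sf2 and Nsdhl had their highest means. So did Hmgcs1, Mvk, Idi1, Fdps, Fdft1, Lss, Dhcr7, Insig1, Scap, Acss2, Scd1 and Elovl6. Hsd17b7, Sc5d and Msmo1 had their highest means in resolution (46.5, 61.6 and 90.4 CPM), where macrophage RNA was lowest, as did Insig2 and Stard4. Most other members had their highest mean in homeostasis. Macrophage RNA was lower in resolution than in homeostasis, whereas the means of Tm7sf2 and Nsdhl were higher there. Of 15 proliferation genes, 15 were lower than homeostasis in inflammation, 15 in resolution, and 12 were lower in resolution than in inflammation. The group means of Fasn and Scd2 had that order too, although neither gene passed in inflammation against homeostasis (adjusted p = 0.0931 and 0.0517). So did those of Pmvk, Cyp51, Ebp, Srebf1, Srebf2, Acly, Elovl5, Fads1 and Fads2, none of which passed in that comparison. Other members did not, among them Idi1 and Msmo1, whose means were lowest in homeostasis. The adipocyte marker sum was 104 to 114 CPM in resolution, 75.7 to 84.5 in inflammation and 81.4 to 172 in homeostasis; the adipocyte hormone Lep was at 0 counts in all 12 libraries, and Adipoq was at 0 counts in inflammation and at 0.17 ± 0.128 CPM in resolution and 0.85 ± 0.286 CPM in homeostasis. The sum of 11 chondrocyte markers was 63.9 to 95.2 CPM in resolution, 37 to 45.5 in inflammation and 868 to 1124 in homeostasis. The sum of 10 Schwann cell markers was 75.3 to 91.2, 64.1 to 70.5 and 122 to 145 CPM, and that of 8 endothelial markers 16.1 to 21.2, 12.4 to 22.5 and 16.4 to 22 CPM, in the same order. The part of these markers in the results for the 33 genes was not tested.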

How the data were processed

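The deposited table holds estimated read counts per gene symbol for 12 libraries, not normalized by the authors; the labels' protocols describe poly(A) enrichment and paired-end NovaSeq sequencing. Per the submitters' processing notes the build was GRCm38 p3. Not given in the sources used here are the annotation, the aligner, how reads were counted and whether strand was used. Of 36930 entries, 13 held no value, and 42 repeated entries of 34 symbols were summed with their partners (none of them a member); 1.43% of these deposited expected counts had a fraction (tolerance 0), and all were rounded. No pair of libraries within a group agreed within sampling noise (reduced chi-square 9.49 to 105), so each counted as 1 sample.

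Members and lists were chosen with earlier results of these data known. All 12 libraries were fitted in edgeR 4.0.16 (R 4.3.3) with group as the only term: default expression filter, TMM factors, robust quasi-likelihood F test, Benjamini-Hochberg adjustment over 15050 genes, threshold 0.05. The biological coefficient of variation was 18.6%. The fit was tested on simulated data. SE is the log2 fold change divided by the root of F. Alternatives used other scalings, DESeq2 1.42.0, other filters, the 2 groups compared alone, a replicate block and leaving out each library; comparisons with homeostasis 1 and 2 or 3 and 4 alone, GC and length offsets, and the block on resolution and inflammation alone or with those offsets were added after seeing the data. Same-numbered libraries of resolution and inflammation deviated together (correlations of 0.13 to 0.21 over 4 pairs, all above a minimum of 0.1 set here). Differently numbered libraries were not compared. Those numbers were used as pairs in the block alternatives only, and the main fit and its counts took no account of them. The pairing comes from the data, since the labels do not say what a number marks. With homeostasis the correlations were -0.23 to 0.08, and the numbers were not taken as pairs. Gene positions, exon lengths and GC content came from GENCODE vM21, upstream windows from RefSeq (GRCm38.p6). A count of 0 allows up to 3 counts, 0.0858 to 0.166 CPM per library, for counting error only. All 33 members were described; of the other lists, up to 4 genes per comparison with the smallest adjusted p could be named, and some listed genes are counted but not named here. The identity of related proteins was not analysed here.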

Additional observations from a re-analysis of the deposited data

Results flagged for a closer look

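In 99 sets of 4 libraries (33 genes in 3 groups), 4 had a highest or lowest library whose gap to the nearest other library was large against the range of the set. Chance flags about 1 in 20 such sets. Acaca was 17.2 CPM in resolution library 2, the lowest of its group. Srebf2 was 208 CPM in resolution library 2, the highest of its group. Cyp51 was 220 CPM in homeostasis library 2, the highest of its group, and without that library its log2 fold change in resolution against homeostasis was -0.17 (adjusted p = 0.236 in edgeR). Elovl6 was 2.89 CPM in homeostasis library 1, the highest of its group.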

How the results depend on the processing

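Over the 33 genes, 3 comparisons and all alternatives, 2178 values were computed. Of these, 1996 kept direction and side of the threshold, 111 fell below it, 69 passed it anew and 2 changed sign with one of the 2 values past the threshold. Another 95 changed sign while past the threshold in neither fit, with a main estimate of at most 0.30 in size. The 2 reversals came with GC and length offsets, in resolution against homeostasis: Hmgcs1 at -0.08 and Stard4 at -0.38 (adjusted p = 0.0354). Calls held in every alternative for 6 of 12 genes in resolution against inflammation (Mvd, Fdps, Lss, Tm7sf2, Dhcr7 and Fasn), 9 of 22 in resolution against homeostasis (Pmvk, Fdps, Msmo1, Hsd17b7, Ebp, Insig2, Acss2, Fasn and Scd2) and 6 of 10 in inflammation against homeostasis (Mvd, Idi1, Tm7sf2, Msmo1, Nsdhl and Acss2).

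Leaving out 1 library at a time, members lower in resolution than in inflammation numbered 6 (without resolution 3 or 4) to 16 (without homeostasis 2), those higher 0 to 1 (without resolution 2), and those lower in inflammation than in homeostasis 0 to 2 (without resolution 2 or inflammation 4). Over all genes, the higher calls in resolution against inflammation ran from 474 (without resolution 4) to 2360 (without resolution 2) and the lower calls from 764 to 1831 (without the same libraries). Members lower in inflammation than in homeostasis numbered 0 in the main fit, 1 with no filter, 1 with homeostasis 1 and 2 alone and 2 with GC and length offsets; the cause was not tested. Upper-quartile scaling gave 3297 higher and 2151 lower genes in inflammation against homeostasis, against 2852 and 2750 with TMM, and 1011 and 1318 in resolution against inflammation, against 1283 and 1148.

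With a replicate block, members lower in resolution than in inflammation numbered 7 in place of 12, with 0 higher. The calls of Mvk, Sqle, Srebf1, Srebf2 and Scd2 were lost. Over all genes that fit called 949 higher and 949 lower. The block on those 2 groups alone called 18 members lower and 1 higher, and 2585 genes higher and 2224 lower in all, against 1283 and 1148; it lost none of the 12. The block with GC and length offsets called 12 members lower and 0 higher, against 7.61% and 7.19% of all genes in that fit. In the comparisons with homeostasis, where numbers did not pair, the block ended the calls of Hmgcs1 (adjusted p = 0.0957 in resolution and 0.0829 in inflammation) and Cyp51 (adjusted p = 0.0644 in resolution). The block changed no other member call and no direction of the 44 calls.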
